A study of Homo sapiens with 9 samples.

Results

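The genes described here are 43 human genes of DNA replication and S phase, the stage of the cell cycle in which the genome is copied. They were chosen by symbol and role, by a rule that names no measured value, and all 43 were found among the 61541 gene identifiers of the count tables. By role they were 5 genes of origin licensing, 12 of the replicative helicase and its activation, 9 of the DNA polymerases and primase, 8 of the sliding clamp and the joining of Okazaki fragments, 5 of nucleotide supply and 4 regulators. None of the 43 genes changed past the threshold with either treatment, and the main fit called 0 of all 15997 genes tested as well. The range of their summed level over the 9 libraries was 1.86% of its mean with TMM scaling and 11.3% when scaled to library totals. With TMM scaling, the 21 genes above the median GC content of the 43 had a range of 34.3%. The 22 at or below it had one of 20.1%.

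The study measured poly(A) RNA of H69 cells by RNA sequencing. H69 is a line of human bile duct epithelial cells (cholangiocytes) immortalized with SV40 large T antigen, a viral protein that binds the retinoblastoma protein and so frees E2F factors, and all 3 groups carry it. Each culture was started with 100000 cells. Growth lasted 48 h and the treatment a further 48 h, during which the medium was renewed after 24 h. The Ctrl group received 10 µl of the solvent DMSO. The Acetazolamide group was given acetazolamide, a drug that inhibits carbonic anhydrases, at 10 µM. The Laminin511-E8 group received 0.25 µg/cm2 of Laminin511-E8, the integrin-binding fragment of the basement membrane protein laminin. A volume of DMSO is given for the Ctrl group only. If the treated cultures had none, treatment and solvent cannot be told apart against control. Each group had 3 libraries, chosen by RNA quality from 4 biological replicates. The sources used here do not say whether the replicates differed in passage or day, and p-values therefore reflect only how far these cultures of 1 cell line varied.

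Before S phase, the origin recognition complex, CDC6 and CDT1 load the ring of MCM2 to MCM7 onto origins, and geminin blocks CDT1 once replication has begun. CDC45 and the GINS complex turn the ring into the active helicase, polymerase alpha with primase starts each strand, and polymerases epsilon and delta extend the strands with the clamp PCNA, which the RFC complex loads. Many of these genes are transcribed late in G1 phase under E2F factors, so that their transcripts are widely used as marks of cycling cells.

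A short E2F-type motif was found in the promoters of 19 of the 38 genes (50%) that had an entry in the RefSeq promoter table (GRCh38.p14), against 908 of 27305 promoters of all genes (3.33%) and 566 of 10717 promoters of the genes tested below (5.28%). The window ran from 250 bases before the start of transcription to 50 bases after it. The letters searched on both strands were TTTCCCGC, TTTGGCGC, TTTCGCGC and TTTGCCGC, and matches could overlap. MCM4, MCM5, GINS4, POLD3 and CCNE2 had no entry. The 4 stretches below are shown because they carry the motif upstream of the start, outside every gene annotated in GENCODE release 29, for 2 helicase genes, 1 polymerase gene and the clamp. Each has 60 bases, reads 5′ to 3′ along the gene's strand, and has the matches in capitals. They lie at chr6:52284887-52284946 (minus strand), chr2:135876500-135876559 (minus), chrX:24693751-24693810 (plus) and chr20:5126652-5126711 (minus).
MCM3: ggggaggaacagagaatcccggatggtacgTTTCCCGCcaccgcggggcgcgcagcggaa
MCM6: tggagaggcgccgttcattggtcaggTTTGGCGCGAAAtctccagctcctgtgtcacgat
POLA1: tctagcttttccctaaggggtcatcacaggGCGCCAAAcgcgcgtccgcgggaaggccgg
PCNA: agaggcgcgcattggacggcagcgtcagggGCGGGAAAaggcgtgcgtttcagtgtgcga

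The capitals of MCM6 hold 2 overlapping matches, 1 on each strand, and its whole window held 4, the most of the 38 genes. The letters CCAAT stood in 21 of the 38 promoters (55.3%), against 35.7% of all promoters and 36.5% of those of the genes tested. The letters TTTGAA or TTCGAA, a core of the CHR element known from genes of mitosis, stood in 2 promoters (5.26%), against 16.6% of all and 11.3% of those of the genes tested. TATAAA stood in 2 promoters (5.26%), against 12.0% of all, but its share among the genes tested was 5.58%, close to that of the 38. These matches describe the letters of the windows, and factor binding was not measured.

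The libraries held between 12529867 and 39518899 counts. The cholangiocyte markers EPCAM, KRT7, KRT19, SOX9 and CDH1 reached 10 counts in every library. Of these, KRT19 was lower with Laminin511-E8 than in control by the fit with GC correction described below (log2 fold change -0.46, adjusted p = 0.0121). In the main edgeR fit, without that correction, KRT19 did not pass after adjustment (log2 fold change -0.45, unadjusted p = 0.0495). In the main fit 0 of these 5 markers had a log2 fold change above 0, against 7867 of all 15997 genes. The part of these markers in the values of the 43 genes was not tested. Hepatocyte, endothelial and leukocyte markers reached 10 counts in every library for 0 of 5, 0 of 3 and 0 of 4 genes, and fibroblast markers for 2 of 5, COL1A1 and PDGFRB. The mean GC content of the counted genes, weighted by counts, ranged from 46.29% to 48.38% between libraries, and it differed within each group.

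Some counts may hold reads of overlapping genes, as described further below, but none of the 43 genes was short of counts. The lowest count of any of them in any library was 141, for POLA2, and all 43 passed the filter on low counts together with 15997 genes in all. Among 13496 genes that reached 10 counts in each of the 9 libraries, the median control level was 24.6 CPM (the count of a gene per 1e6 counts of its library), and 39 of the 43 genes lay above it. CPM were computed with TMM normalization, which reduces differences in library composition. Levels are compared between genes as CPM per kilobase of the principal transcript, because longer transcripts give more reads.

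By level per kilobase over the 9 libraries, the clamp PCNA came first with 338 ± 35.2 CPM per kb (SD, n = 9), followed by MCM4 with 164 ± 3.52, TYMS with 157 ± 8.81, MCM3 with 120 ± 10.4 and RRM2 with 116 ± 10.4. MCM4 and TYMS, neighbours in this order, differed by less than their summed SDs, as did MCM3 and RRM2. The lowest levels were those of POLA2 with 2.90 ± 0.385 CPM per kb, CCNE1 with 6.0 ± 0.399 and CDT1 with 7.08 ± 1.97. CCNE1 and CDT1 did not differ beyond their spread. With the length of all annotated exons in place of the principal transcript, PCNA stayed first at 313 CPM per kb and POLA2 last at 1.90.

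**Figure D1:**
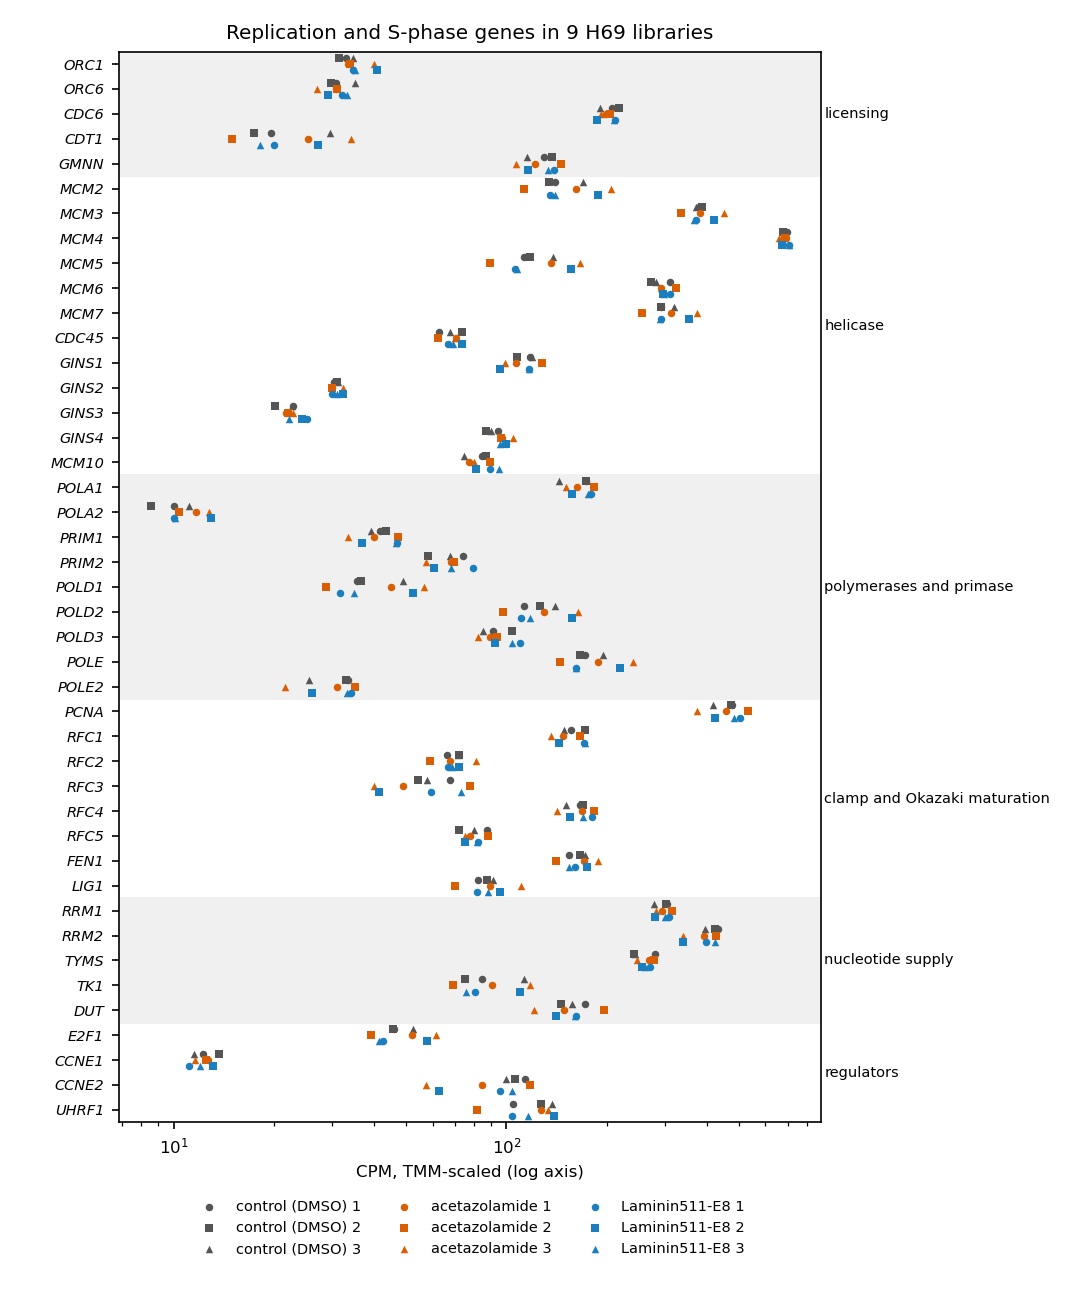
CPM of each of the 43 genes (horizontal log axis, TMM-scaled) in the 9 libraries, with genes in rows grouped by role, colours for the treatment groups and point shapes for the replicate number. The colours are mixed within nearly every row, from POLA2 with a mean of 10.9 CPM to MCM4 with one of 687 CPM, and rows such as CDT1 and CCNE2 are wide while MCM4 and GINS2 are narrow.

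Summed over the 43 genes, the level was 6311, 6221 and 6209 CPM in the control libraries, 6259, 6227 and 6297 CPM in the acetazolamide libraries, and 6326, 6294 and 6303 CPM in the Laminin511-E8 libraries. The group means were 6247 ± 55.9, 6261 ± 34.8 and 6308 ± 16.5 CPM (SD, n = 3 each), and the groups overlapped. In bulk RNA, fewer cells in S phase and less RNA of these genes per cell cannot be told apart. Scaled to library totals in place of TMM, the sum ranged from 5807 CPM in control replicate 2 to 6512 CPM in acetazolamide replicate 3, and the groups overlapped as well. Mitochondrial genes held 16.25% of the counts of control replicate 2, against 9.43% to 11.76% in the other libraries. Such counts enter the library totals, and their part in this range was not tested. The ranges of the sums of single roles were 8.84% of the mean for licensing to 17.9% for the regulators with TMM, and 6.99% for licensing to 21.5% for the helicase with library totals. The narrow range with TMM was not shared by the list most like these genes. The sum over 55 other genes of replication and S phase, described below, ranged from 4965 to 5926 CPM, 17.3% of its mean. The sum over 30 mitosis genes ranged from 9650 to 11609 CPM, 18.3% of its mean.

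**Figure D2:**
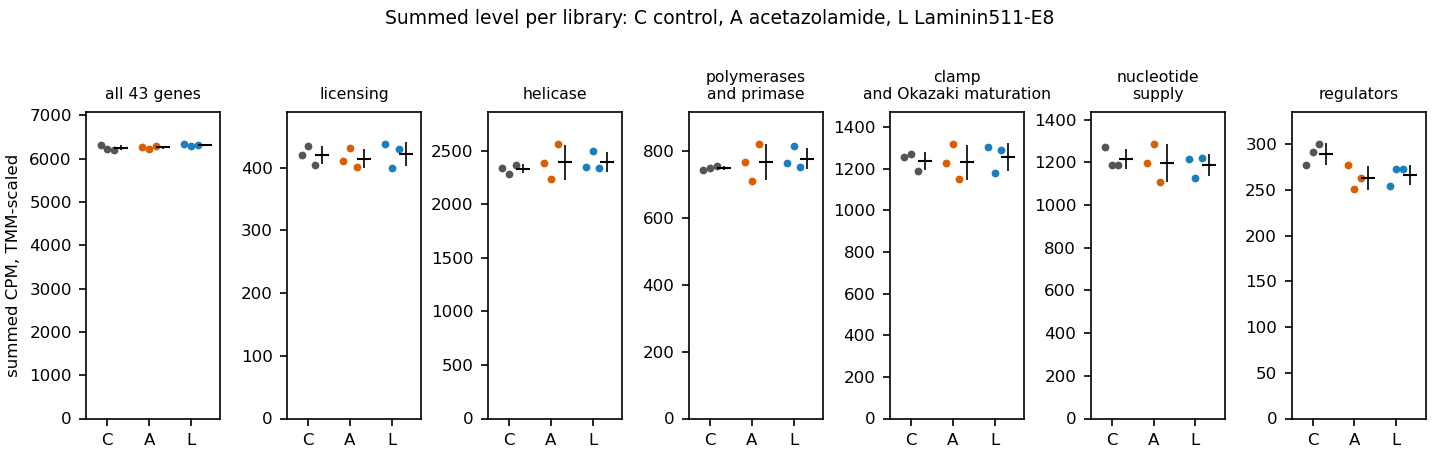
Summed CPM (vertical axis from 0, TMM-scaled) of all 43 genes and of each role in control (C), acetazolamide (A) and Laminin511-E8 (L) libraries, with 1 point per library and a bar for the mean and SD of 3 libraries. The whole list lies between 6209 and 6326 CPM, and the control points of the regulators, 277 to 300 CPM, lie at or above those of both treatments. Scaled to library totals (not shown), the regulators overlapped. They had 273, 273 and 306 CPM in control, 252 to 284 with acetazolamide and 252 to 282 with Laminin511-E8.

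The first comparison asks what Laminin511-E8 changed against control. By edgeR's quasi-likelihood test with Benjamini-Hochberg adjustment, 0 of 43 genes passed an adjusted p of 0.05, beside 0 of all 15997 genes tested (0%), and every adjusted p of the 43 was 1. At an unadjusted p under 0.05 there were 0 of 43 genes, against 454 of all genes (2.84%). DESeq2 and limma voom called 0 of 43 as well. Over all genes, DESeq2 called 20 of the 14823 to which it gave an adjusted p, and limma voom 0 of 15997. The median log2 fold change of the 43 genes was 0.02, beside -0.003 over all genes, with 27 of 43 above 0 and a range from -0.28 for CCNE2 to 0.16 for ORC1. Laminin511-E8 libraries all lay above all control libraries for 2 of 43 genes, ORC1 and GINS4, and below them for 0, whereas 8.65% of all genes did not overlap.

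The second comparison asks the same of acetazolamide. edgeR called 0 of 43 genes, beside 0 of all genes (0%), and 0 of 43 at an unadjusted p under 0.05, against 292 of all genes (1.83%). DESeq2 and limma voom called 0 of 43. Over all genes, DESeq2 called 4 of 33863 with an adjusted p, and limma voom 0 of 15997. The median log2 fold change was 0.01, beside 0.005 over all genes, with 23 of 43 above 0 and a range from -0.30 for CCNE2 to 0.24 for POLA2. The groups did not overlap for 1 of 43 genes, GINS4, against 5.31% of all genes.

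Laminin511-E8 and acetazolamide were also compared with each other. Here edgeR called 0 of 43 genes, beside 0 of all genes (0%), and 0 of 43 at an unadjusted p under 0.05, against 374 of all genes (2.34%). DESeq2 and limma voom called 0 of 43. Over all genes, DESeq2 called 12 of 24014 with an adjusted p, and limma voom 0 of 15997. The median log2 fold change was -0.001, beside 0.002 over all genes, and 21 of 43 lay above 0. The groups overlapped for all 43 genes, whereas 6.13% of all genes did not overlap. Both treatments share the control libraries in the earlier comparisons, so their values are given side by side below and not correlated.

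These counts do not show that the genes were equal between groups, and the 95% intervals give the changes that the data leave possible. Against control, the interval lay within 0.5 on the log2 scale to either side of 0 for 35 of 43 genes with Laminin511-E8 and for 31 with acetazolamide, and within 1 for all 43 in both. The narrowest was that of MCM4, 0.18 to either side of its estimate with each treatment, and the widest that of CDT1, 0.68 to either side. Between the treatments the interval lay within 0.5 for 33 genes and within 1 for all 43.

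**Figure D3:**
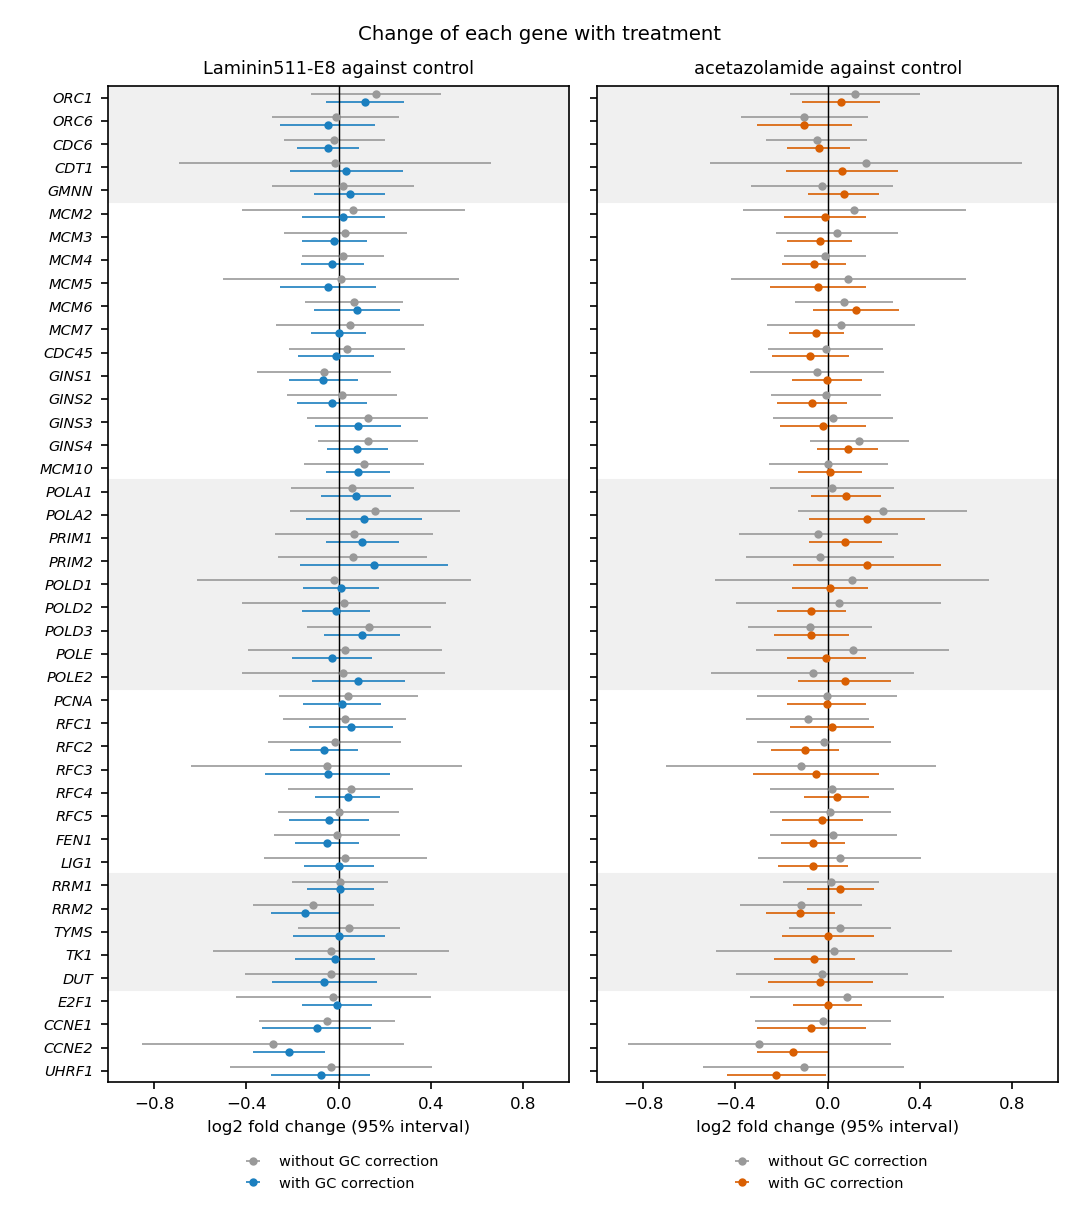
Log2 fold change against control with its 95% interval (horizontal axis, edgeR) for each of the 43 genes, Laminin511-E8 on the left and acetazolamide on the right, without (grey) and with (colour) a correction for GC content. All grey intervals include 0, and the coloured ones are narrower for most genes, with those of CCNE2 on the left and UHRF1 on the right just clear of 0 before adjustment.

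Of the licensing genes, ORC1 encodes the largest subunit of the origin recognition complex. Its level was 32.9, 31.4 and 34.5 CPM in control, 33.5, 34.0 and 39.9 with acetazolamide, and 34.6, 40.9 and 35.1 with Laminin511-E8. Each Laminin511-E8 library was above each control library, in the closest pair by 34.6 against 34.5 CPM, with a log2 fold change of 0.16 ± 0.13 (SE, interval -0.12 to 0.44, unadjusted p = 0.228). ORC6, another subunit of the complex, ranged from 27.0 to 35.0 CPM with fold changes of -0.01 and -0.10 on the log2 scale for Laminin511-E8 and acetazolamide.

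CDC6, the loader that works with CDT1, was among the steadier genes, at 187 to 218 CPM in all 9 libraries. CDT1 (ENSG00000167513, chr16:88803213-88809258 in GRCh38, plus strand) was the least steady. It had 19.6, 17.5 and 29.5 CPM in control, 25.3, 15 and 34.2 with acetazolamide, and 20.1, 27.2 and 18.2 with Laminin511-E8. The highest library was 2.28 times the lowest, and both were acetazolamide libraries, so that the log2 fold changes of -0.02 ± 0.30 and 0.17 ± 0.30 (Laminin511-E8 and acetazolamide) lay well inside the spread. GMNN, which encodes geminin, the inhibitor of CDT1, ranged the other way in the same libraries, from 107 CPM in acetazolamide replicate 3, where CDT1 was highest, to 146 CPM in acetazolamide replicate 2, where CDT1 was lowest. Per kilobase, GMNN lay above CDT1 in all 9 libraries, and the log2 ratio of CDT1 to GMNN ranged from -4.64 to -3.01. Its mean of -3.87 became -2.94 with the length of all annotated exons, and the size of the ratio thus depended on the length used.

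The helicase ring is built from 1 copy each of MCM2 to MCM7, but their transcripts were not at 1 level. MCM4 was the highest of them per kilobase and MCM5 the lowest in all 9 libraries, and the ratio between them ranged from 3.34 in acetazolamide replicate 3 to 6.5 in acetazolamide replicate 2. With the length of all annotated exons, MCM3 was slightly above MCM4 on average, while MCM4 stayed above MCM2, MCM5, MCM6 and MCM7. MCM4 had 697, 677 and 686 CPM in control, 693, 686 and 661 with acetazolamide, and 706, 675 and 705 with Laminin511-E8, which makes it the steadiest of the 43 genes (highest over lowest 1.07).

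MCM5 had 113, 118 and 138 CPM in control, 136, 89.2 and 167 with acetazolamide, and 106, 156 and 108 with Laminin511-E8. It swung within both treated groups, as did MCM2, which ranged from 113 to 206 CPM, and the extremes of both genes were acetazolamide replicates 2 and 3. MCM3 and MCM7 had the same 2 libraries as extremes, at 335 and 451 CPM and at 256 and 373 CPM. MCM6 went the other way, with its highest level, 324 CPM, in acetazolamide replicate 2. The log2 fold changes of the 6 genes ranged from 0.01 to 0.07 for Laminin511-E8 and from -0.01 to 0.12 for acetazolamide.

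GINS1 to GINS4 encode the 4 subunits of the GINS complex. Per kilobase, GINS1 lay 2.98-fold above GINS2, 3.45-fold above GINS3 and 1.37-fold above GINS4 over the 9 libraries, in 9 of 9 libraries each. With the length of all annotated exons, the ratio to GINS3 was 6.18 and thus depended on the length used. GINS4 had 94.2, 87.0 and 89.8 CPM in control, 97.0, 96.6 and 105 with acetazolamide, and 100, 100 and 95.4 with Laminin511-E8. The control libraries were lowest in both comparisons, with log2 fold changes of 0.13 ± 0.10 for Laminin511-E8 (interval -0.09 to 0.34, unadjusted p = 0.223) and 0.14 ± 0.10 for acetazolamide (interval -0.08 to 0.35, unadjusted p = 0.187), neither of which passed.

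GINS2 was nearly as steady as MCM4, between 29.9 and 32.4 CPM. GINS3 ranged from 20.2 to 25.1 CPM and GINS1 from 95.6 to 128 CPM. CDC45, which joins GINS and the MCM ring in the active helicase, ranged from 62.5 to 73.8 CPM, and MCM10, which helps to activate it, from 74.6 to 95 CPM. Over the 12 helicase genes the median log2 fold change was 0.04 for Laminin511-E8, with 11 of 12 above 0, and 0.03 for acetazolamide, with 8 of 12 above 0, where 7867 and 8165 of all 15997 genes lay above 0. With the correction for GC content described below, 6 and 3 of 12 lay above 0, and the medians were -0.005 and -0.03. Other roles did not all move so. For Laminin511-E8, 8 of 9 polymerase and primase genes lay above 0 without the correction and 7 with it. The regulators had 0 of 4 in both fits, clamp and Okazaki genes 4 of 8 in both, and nucleotide supply 2 of 5 in both. Licensing had 2 of 5 without it and 3 with it.

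The subunits of polymerase alpha were at far different levels. POLA1, the catalytic subunit of polymerase alpha, lay 10.5-fold above POLA2, its regulatory subunit, per kilobase (log2 ratio 3.40 ± 0.29, SD, n = 9). With the length of all annotated exons the ratio was 13.9-fold. POLA2 (ENSG00000014138, chr11:65261762-65305589 in GRCh38, plus strand) had 10.0, 8.54 and 11.1 CPM in control, 11.7, 10.4 and 12.8 with acetazolamide, and 10.0, 13 and 10.1 with Laminin511-E8. The acetazolamide libraries overlapped with those of control, and the log2 fold change of 0.24 ± 0.16 (interval -0.13 to 0.61, unadjusted p = 0.177) was the highest of the 43 genes in that comparison.

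PRIM1 and PRIM2, the 2 subunits of primase, were at like levels per kilobase of the principal transcript, with a log2 ratio of 0.04 ± 0.14 (SD, n = 9). With the length of all annotated exons the mean log2 ratio was 0.25. PRIM1 ranged from 33.5 to 47.2 CPM and PRIM2 from 57.5 to 79.4 CPM. POLD1, the catalytic subunit of polymerase delta, had 35.6, 36.6 and 48.8 CPM in control, 44.9, 28.7 and 56.5 with acetazolamide, and 31.7, 52.3 and 34.9 with Laminin511-E8. As for CDT1, its lowest and highest libraries were both of the acetazolamide group, 1.97-fold apart. POLD2, an accessory subunit, moved with it from 97.7 to 164 CPM, and the log2 ratio of POLD1 to POLD2 stayed between -2.48 and -2.20. The mean of this ratio was -2.33 per kilobase of the principal transcript and -2.08 with all annotated exons.

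POLD3 (ENSG00000077514, chr11:74493851-74669117 in GRCh38, plus strand), a further subunit of polymerase delta, had 90.9, 104 and 84.8 CPM in control, 89.4, 94.0 and 82.0 with acetazolamide, and 110, 92.7 and 104 with Laminin511-E8. It had the smallest unadjusted p of the 43 genes between the treatments, with a log2 fold change of 0.21 ± 0.12 for Laminin511-E8 against acetazolamide (interval -0.06 to 0.47, unadjusted p = 0.116), and the groups overlapped. POLE, the catalytic subunit of polymerase epsilon, ranged from 145 to 240 CPM, and POLE2, its second subunit, from 21.6 to 35.2 CPM. They had opposite extremes, with POLE highest and POLE2 lowest in acetazolamide replicate 3.

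PCNA, the sliding clamp, had 476, 474 and 418 CPM in control, 456, 533 and 375 with acetazolamide, and 502, 423 and 483 with Laminin511-E8. Its group means of 456 ± 32.9, 455 ± 78.7 and 469 ± 41.0 CPM (SD, n = 3) lay closer together than the libraries of any group. The log2 fold changes were 0.04 ± 0.14 for Laminin511-E8 (interval -0.26 to 0.34) and -0.004 ± 0.14 for acetazolamide (interval -0.31 to 0.30). RFC1 to RFC5 form the complex that loads the clamp. RFC4 was the highest of them per kilobase and lay 3.53-fold above RFC1, 2.79-fold above RFC2, 4.85-fold above RFC3 and 2.36-fold above RFC5, in 9 of 9 libraries. With the length of all annotated exons these ratios were 2.36, 1.76, 2.8 and 2.24.

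RFC3 (ENSG00000133119, chr13:33818049-33966558 in GRCh38, plus strand) was the least steady of the loader genes. It had 67.8, 54.4 and 57.9 CPM in control, 48.9, 77.5 and 39.9 with acetazolamide, and 59.2, 41.3 and 73.1 with Laminin511-E8. The acetazolamide group held both extremes, and the log2 fold changes were -0.05 ± 0.26 and -0.11 ± 0.26 for Laminin511-E8 and acetazolamide. FEN1, the nuclease that trims the flaps of Okazaki fragments, ranged from 141 to 189 CPM, and LIG1, the ligase that seals them, from 70.2 to 111 CPM. Both were lowest in acetazolamide replicate 2 and highest in acetazolamide replicate 3.

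RRM1 and RRM2 encode the large and small subunits of ribonucleotide reductase, which makes deoxyribonucleotides. RRM1 was steady at 278 to 315 CPM. RRM2 had 433, 424 and 396 CPM in control, 392, 425 and 339 with acetazolamide, and 397, 340 and 423 with Laminin511-E8. The control mean was the highest, but the groups overlapped, and the log2 fold changes were -0.11 ± 0.12 for Laminin511-E8 (interval -0.37 to 0.15) and -0.12 ± 0.12 for acetazolamide (interval -0.38 to 0.15).

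TYMS, which makes thymidylate, ranged from 242 to 280 CPM, with both extremes in control. TK1, the thymidine kinase of cycling cells, had 84.3, 75.3 and 113 CPM in control, 90.8, 69.2 and 118 with acetazolamide, and 80.6, 110 and 75.5 with Laminin511-E8. Every group held 1 library at or above 110 CPM and 1 or more below 85. DUT, which removes dUTP, ranged from 121 to 197 CPM, both in the acetazolamide group and in the opposite order to TK1.

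The regulators held the lowest log2 fold changes of both treatments. CCNE2, which encodes cyclin E2, a partner of CDK2 at the start of S phase, had 114, 106 and 99.6 CPM in control, 84.6, 118 and 57.2 with acetazolamide, and 95.8, 62.7 and 104 with Laminin511-E8. The control libraries were close together and both treated groups reached far below them, but each treated group also held a library within or above the control range. The log2 fold changes were -0.28 ± 0.25 for Laminin511-E8 (interval -0.85 to 0.28, unadjusted p = 0.291) and -0.30 ± 0.25 for acetazolamide (interval -0.86 to 0.27, unadjusted p = 0.272). CCNE1, which encodes cyclin E1, stayed between 11.1 and 13.7 CPM, and CCNE2 lay 4.56-fold above it per kilobase.

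E2F1, a transcription factor of the G1 to S transition and itself among the genes with E2F motifs in its window, had 46.0, 45.7 and 52.5 CPM in control, 52.2, 39.1 and 61.3 with acetazolamide, and 42.5, 57.9 and 41.4 with Laminin511-E8. UHRF1, which helps to copy DNA methylation behind the fork, had 105, 127 and 137 CPM in control, 127, 81.6 and 133 with acetazolamide, and 104, 139 and 116 with Laminin511-E8. Neither gene separated the groups, with log2 fold changes of -0.02 ± 0.19 and -0.03 ± 0.20 for Laminin511-E8 and 0.08 ± 0.19 and -0.10 ± 0.20 for acetazolamide.

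The swings within groups followed the GC content of the genes' transcripts. GC content ranged from 38.5% for CCNE2 to 65.2% for CDT1, with a median of 49.1%. In acetazolamide replicate 3 the deviation of the 43 genes from their mean over the 9 libraries rose by 0.37 on the log2 scale per 10 percentage points of GC (Pearson's r = 0.92 over 43 genes of 1 library), from -0.67 for CCNE2 to 0.62 for CDT1. In acetazolamide replicate 2 it fell by 0.32 per 10 points (r = -0.91), from 0.46 for RFC3 to -0.56 for CDT1.

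The same relation was positive in control replicate 3 (r = 0.70), acetazolamide replicate 1 (r = 0.72) and Laminin511-E8 replicate 2 (r = 0.89), and negative in control replicates 1 and 2 (r = -0.80 and -0.47) and Laminin511-E8 replicates 1 and 3 (r = -0.89 and -0.86). Each group thus held libraries of both signs. The relation was not particular to these genes, since over 15737 genes r ranged from -0.60 to 0.70 in the same libraries, with the same signs. These correlations describe genes of single libraries, which share depth and preparation, and the source of the relation was not tested.

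**Figure D4:**
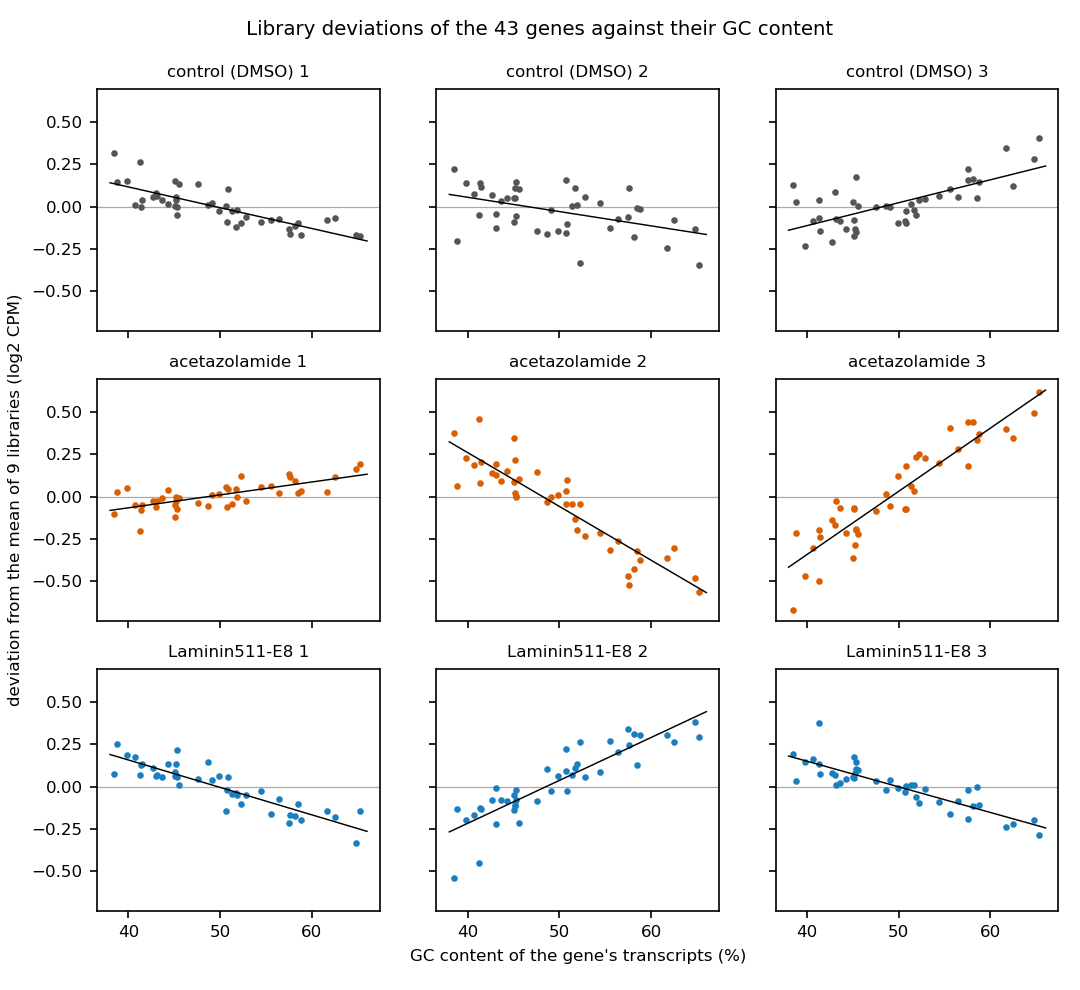
Deviation of each of the 43 genes from its mean over 9 libraries (vertical axis, log2 CPM) against the GC content of its transcripts (horizontal axis, percent), 1 panel per library with a least-squares line. The line rises in 4 libraries and falls in 5, most steeply in acetazolamide replicates 3 and 2, and every group holds both kinds.

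With TMM scaling, the sum over the 43 genes was made of parts that moved against each other. The 21 genes above the median GC content summed to between 2065 and 2903 CPM, and the 22 at or below it to between 3394 and 4162 CPM. In acetazolamide replicate 2 the first sum was the lowest of all 9 libraries and the second the highest, and in acetazolamide replicate 3 the reverse held.

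When the trend of each library with GC content was removed, the median SD within groups of the 43 genes fell from 0.142 to 0.0792 on the log2 scale, and it was smaller for 36 of 43 genes. Counting error alone would give 0.0321. For E2F1 the SD went from 0.254 to 0.0596, for MCM7 from 0.188 to 0.0186, for CDT1 from 0.449 to 0.154 and for CCNE2 from 0.381 to 0.0792. For MCM4 it rose from 0.0322 to 0.0557, for MCM6 from 0.0794 to 0.117 and for PRIM2 from 0.174 to 0.222. The 8833 genes in the same range of mean CPM went from 0.206 to 0.106, and the SD was smaller for 7324 of them. The trends were fitted to the deviations of these same libraries, so a fall in SD was partly built in.

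With this correction, edgeR called 0 of 43 genes for Laminin511-E8 against control, beside 56 of 15737 genes (0.356%), 0 of 43 for acetazolamide against control, beside 0 (0%), and 0 of 43 between the treatments, beside 27 (0.172%). At an unadjusted p under 0.05 there was 1 of 43 genes in each comparison, against 7.89%, 4.47% and 5.25% of all genes. The intervals lay within 0.5 on the log2 scale for all 43 genes in all 3 comparisons, the widest being 0.32 to either side for PRIM2. The median log2 fold changes of the 43 genes were 0.0007, -0.02 and 0.002.

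The 3 genes at an unadjusted p under 0.05 differed between the comparisons. CCNE2 had a log2 fold change of -0.22 ± 0.07 with Laminin511-E8 against control (interval -0.37 to -0.06, unadjusted p = 0.0103, adjusted p = 0.406). UHRF1 had a log2 fold change of -0.22 ± 0.10 with acetazolamide against control (interval -0.44 to -0.01, unadjusted p = 0.0419, adjusted p = 0.938). POLD3 had one of 0.17 ± 0.07 with Laminin511-E8 against acetazolamide (interval 0.01 to 0.34, unadjusted p = 0.0387, adjusted p = 0.906). None of them passed after adjustment over all genes. For acetazolamide, CCNE2 had a corrected log2 fold change of -0.15 ± 0.07 (interval -0.31 to 0.003).

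A list of 57 other genes of replication and S phase, of which 55 passed the filter, gave 0 calls in all 3 comparisons, with and without the correction, and 0, 1 and 0 genes at an unadjusted p under 0.05 by edgeR for Laminin511-E8 against control, acetazolamide against control and between the treatments. The median log2 fold changes were -0.02, -0.07 and 0.05. POLD4, the smallest subunit of polymerase delta, was the gene at an unadjusted p under 0.05, with 0.824, 0.813 and 0.941 CPM in control and 1.29, 1.38 and 2.40 with acetazolamide (log2 fold change 0.92 ± 0.36, unadjusted p = 0.028, adjusted p = 1). It had 271 counts over all 9 libraries. RNASEH2C, a subunit of ribonuclease H2, came next for acetazolamide at 0.27 ± 0.15.

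For Laminin511-E8 against control, the smallest p-values of that list were those of TICRR, which acts in origin firing, with a log2 fold change of 0.21 ± 0.11 (unadjusted p = 0.0792), and RNASEH2A, the catalytic subunit of ribonuclease H2, with 0.40 ± 0.23. Between the treatments they were those of CDKN1A, which encodes the CDK inhibitor p21, with -0.40 ± 0.20 (unadjusted p = 0.0823), and RNASEH2C with -0.27 ± 0.15. The 30 mitosis genes gave 0 calls and 0 genes at an unadjusted p under 0.05 in the 3 comparisons by edgeR, with median log2 fold changes of 0.03, -0.01 and 0.05.

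Of the mitosis genes, CCNB1, which encodes cyclin B1, had the smallest p against control with both Laminin511-E8 (log2 fold change 0.16 ± 0.10) and acetazolamide (0.13 ± 0.10). Next came TPX2, a spindle protein, for Laminin511-E8 (0.11 ± 0.10) and CENPE, a kinetochore motor, for acetazolamide (-0.33 ± 0.29). Between the treatments, NUSAP1, a spindle protein with 157 counts in all, had 0.25 ± 0.32 and CENPE 0.22 ± 0.29.

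Some counts may hold reads of overlapping genes, since neither the use of strand nor the handling of shared reads in the counting is known here. For 8 of the 43 genes, an overlapping annotated gene had at least 10% of their counts: NACA for PRIM1, EIF4A2 for RFC4, GSE1 for GINS2, WSB2 for RFC5, FADS2 for FEN1, ENOSF1 for TYMS, INTS8 for CCNE2 and TPRA1 for MCM2. NACA and FADS2 lie on the same strand as PRIM1 and FEN1, so that counting by strand would not separate them, and the others lie on the opposite strand. Annotated pseudogenes existed for 9 of the 43 genes, with at most 115 counts over all libraries, for RRM2.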

How the data were processed

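For 9 libraries of H69 cells, the authors deposited tables of raw gene counts. Per the labels and the submitters' processing notes, reads of poly(A) libraries were trimmed (Trimmomatic 0.39), checked (FastQC 0.11.9), aligned to GRCh38 (HISAT2 2.2.1) and counted by gene (HTSeq 0.11.0), and the RNA had RNA integrity numbers of 9 to 10. For the annotation release, the use of strand and reads that match more than 1 gene, settings were not given in the sources used here. No measured value enters the rule for the members, but both members and the gene lists were chosen with earlier results of these data known. Groups came from the sample labels, and 0 columns lacked a matched sample.

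Under R 4.3.3, edgeR 4.0.16 fitted the counts (genes kept by filterByExpr, TMM scaling, robust quasi-likelihood fit of all 9 libraries, group as the only term), with Benjamini-Hochberg adjustment over 15997 genes and a threshold of 0.05. The methods of the study state no test for the treated libraries. Standard errors and 95% intervals came from the same fit. For the GC correction, the deviations of each library were regressed locally on transcript GC content from GENCODE release 29 (span 0.3, 15737 genes) and the trends entered as offsets. Alternatives were DESeq2 1.42.0, limma 3.58.1 (voom), relative log expression scaling, no filter on low counts, at least 10 counts in every library, the 6 libraries compared alone, the replicate number as a block and leaving out each library. The GC correction without each library in turn, the exon length alternative and the sums of each role scaled to library totals were chosen after seeing the data. The fits were also run on simulated counts with the same spread for every gene and a linear trend with GC content or none. Those settings are simpler than these libraries, and no result here rests on that run. Named genes were all members, and from the lists of other replication genes and mitosis genes up to 4 passing genes or, where none passed, the 2 with the smallest p per comparison. Promoter windows came from RefSeq (GRCh38.p14). Python 3.11.15, pandas 2.3.3 and matplotlib 3.10.9 were used for levels and plots. Total counts ranged from 12529867 to 39518899, so that 3 counts, the limit that a count of 0 allows, are 0.0759 to 0.239 CPM, for counting error only. The result of 1 cholangiocyte marker is not reported here.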

Additional observations from a re-analysis of the deposited data

How the results depend on the processing

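None of the 43 genes was called in any comparison under any of the alternatives run, including those without each library in turn, with and without the GC correction. Counts over all genes did change. For Laminin511-E8 against control the main fit of edgeR called 0 genes, DESeq2 20, the GC correction 56 and the GC correction with the replicate number as a block 6. For acetazolamide against control, DESeq2 called 4, and between the treatments DESeq2 called 12, the GC correction 27 and the GC correction with the replicate number as a block 0. These fits differ in several steps, and the cause was not tested.

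Leaving out each library in turn, all genes called stayed at 0 and the median log2 fold change of the 43 genes ranged from 0.0006 to 0.0469 for Laminin511-E8 against control, from -0.0301 to 0.0315 for acetazolamide against control and from -0.0039 to 0.0314 between the treatments. The largest absolute log2 fold change of any of the 43 genes ranged from 0.26 to 0.42, from 0.22 to 0.58 and from 0.16 to 0.45. For acetazolamide, the value of 0.58 was that of CCNE2 without acetazolamide replicate 2, and RFC3 then had -0.43 and DUT -0.22. LIG1 had -0.11 without acetazolamide replicate 3. Single log2 fold changes of the 43 genes were compared over the alternatives other than the GC correction without each library in turn. Of these values, 11 of 2322 moved by more than 1 SE. Scaled to library totals in place of TMM, the summed level of the 43 genes was 6116 CPM in control, 6395 with acetazolamide and 6291 with Laminin511-E8, against 6247, 6261 and 6308. The control value includes replicate 2, which had the highest share of mitochondrial counts (16.25%).

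Deviations of same-numbered libraries from their group means, taken without the GC correction, correlated between -0.65 and 0.24. The trends of single libraries with GC content enter these values, so they cannot decide whether the replicate numbers pair the samples. The main fit treated the libraries as unpaired. With the replicate number as a block, edgeR called 0 genes in each comparison (281, 200 and 239 at an unadjusted p under 0.05), and the median log2 fold changes of the 43 genes were 0.03, 0.01 and 0.004. With the GC correction and the replicate block, the largest absolute values were 0.22, 0.22 and 0.17. Counting error alone would give the 43 genes a median SD of 0.0321 on the log2 scale, against 0.142 measured within groups, and the median half-width of their intervals was 0.29 without and 0.164 with the GC correction.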
